A study of Bos taurus with 20 samples.

Results

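Described here are 9 genes of triglyceride assembly and of the proteins that coat or break down lipid droplets: DGAT2, AGPAT2, FITM2, CIDEC, CIDEA, PLIN2, PLIN5, PNPLA2 and LIPE. They were chosen by name, as genes of this pathway, and every probe set annotated to exactly 1 of these symbols was taken. That gave 12 probe sets out of 24016 that are no array controls, and 9 genes out of 9155 that have a probe set with 1 symbol. LIPE has 4 probe sets and each other gene has 1. The 2 dimmest LIPE probe sets fell among the 40% of probe sets with the lowest mean, which were left out of the tests, so 10 of the 12 were tested among 14409 in all.

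Skeletal muscle holds triglyceride in 2 places. Fat cells lying between the fibres store it in a single large droplet, and the fibres themselves keep small droplets that feed their mitochondria. AGPAT2 adds the second fatty acid to the glycerol backbone, DGAT2 adds the last, and FITM2 helps the new droplet form. CIDEC and CIDEA sit where droplets touch and pass lipid from the smaller to the larger, and they are known mainly from fat cells. PLIN2 and PLIN5 coat small droplets, and PLIN5 is abundant in oxidative tissues, where it ties droplets to mitochondria. PNPLA2 (adipose triglyceride lipase) cuts the first fatty acid off triglyceride in fat cells and fibres alike, and LIPE (hormone-sensitive lipase) cuts the next.

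The tissue was Musculus longissimus dorsi, the long back muscle, of 20 F2 bulls from a cross of Holstein, a dairy breed, with Charolais, a beef breed. Of these, 10 had a high and 10 a low content of intramuscular fat (IMF), and each was measured on 1 Affymetrix array. The animal numbers in the sample titles form 2 series, with an S before the number (5 high and 5 low IMF bulls) and without one (5 high and 5 low IMF bulls). What the S means is not explained in the labels. IMF is labelled only as high or low, with no measured content, and no age is given in the labels used here.

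Values are given as log2(intensity + 1) for each animal. The level of one gene cannot be set against that of another on this scale, because each probe set has its own brightness, so only differences between animals are compared. Array medians ran from 51.6 to 67.7 in intensity, no 2 arrays held identical values, and the number of arrays limits the precision. All 10 tested muscle fibre genes were bright, and their mean log2 level ran from 13.66 to 13.84 in high IMF and from 13.72 to 13.90 in low IMF muscle. The 8 tested fat cell markers had a mean log2 level of 8.04 to 10.73 in high IMF and 7.40 to 9.74 in low IMF muscle, with no marker at 0 in any animal. A high signal for albumin, a liver transcript, was found on 4 arrays. On the albumin probe set Bt.5130.1.A1_a_at the intensity was 4871 for high IMF replicate 6, 11888 for high IMF replicate 8, 59753 for high IMF replicate 10 and 83307 for low IMF replicate 3, against 245 to 469 on the other 16. Of the 9 albumin probe sets, 2 set these 4 arrays above all others and 7 did not. The 3 high IMF arrays among them belong to the S series and the low IMF array does not, so results are also given without these 4 arrays. The mean log2 level of 6 tested liver transcripts reached 11.38 in high IMF S bulls and 10.86 in low IMF bulls without the S. Where no such array was included, it reached 6.82 in low IMF S bulls and 6.62 in high IMF bulls without the S.

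CIDEC differed most between the IMF groups among the 9 genes. The 5 high IMF bulls of the S series had log2 values of 12.81, 10.74, 11.60, 9.58 and 13.06, and the 5 low IMF bulls of that series had 12.02, 8.93, 9.48, 6.99 and 9.55. Without the S, high IMF bulls had 10.60, 9.14, 8.64, 9.46 and 9.67, and low IMF bulls had 9.59, 8.06, 8.11, 7.26 and 5.89. All 10 high IMF bulls lay above the low IMF median, but the groups overlapped, because low IMF replicate 6, an S animal, reached 12.02 and exceeded 8 of the 10 high IMF bulls. CIDEC averaged 10.53 ± 1.53 in high IMF and 8.59 ± 1.72 in low IMF muscle (SD, n = 10 each). The difference of 1.94 (SE 0.67), or 3.84-fold, had an unadjusted limma p of 0.00844 and an adjusted p of 0.9997, so it did not pass. It was 2.16 (SE 0.79) in S animals and 1.72 (SE 0.79) in the others.

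DGAT2, the enzyme of the last assembly step, came next. High IMF S bulls had 9.67, 8.46, 9.40, 7.66 and 10.97, and low IMF S bulls had 9.08, 7.52, 7.51, 7.54 and 7.75. Without the S, high IMF bulls had 8.46, 7.53, 6.78, 7.07 and 7.88, and low IMF bulls had 7.38, 7.34, 6.47, 7.19 and 5.99. High IMF replicate 10 (10.97) stood highest of all, and low IMF replicate 6 (9.08) was again the highest of its group. The mean was 8.39 ± 1.30 in high IMF and 7.38 ± 0.81 in low IMF muscle (SD, n = 10 each), a difference of 1.01 (SE 0.45) with an unadjusted limma p of 0.0344 and an adjusted p of 0.9997. The difference was 1.35 (SE 0.48) in S animals and 0.67 (SE 0.48) in the others.

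AGPAT2, the enzyme of the second assembly step, parted the IMF groups in animals without the S. There the high IMF bulls had 7.76, 7.45, 7.54, 8.13 and 7.76, and the low IMF bulls had 7.09, 6.89, 6.37, 7.38 and 7.44. These 2 sets did not overlap, although 7.45 and 7.44 nearly touched. In the S series the high IMF bulls had 9.22, 8.83, 8.55, 8.42 and 9.21, and the low IMF bulls had 8.57, 8.86, 8.63, 8.78 and 8.58, which overlapped widely. The AGPAT2 difference was 0.16 (SE 0.19) in S animals and 0.69 (SE 0.19) in the others, where its unadjusted limma p was 0.00174 and its adjusted p was 0.99998. Over all 20 animals it was 0.43 (SE 0.33), and it was 0.26 without low IMF replicate 3.

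CIDEA, the other fat cell droplet protein, had a median of 6.82 (range 5.98 to 9.66) in high IMF and 6.62 (5.27 to 7.95) in low IMF muscle. Its difference of 0.66 (SE 0.42) rested in part on high IMF replicate 10, the animal at 9.66, and was 0.38 without that array. FITM2, the droplet-forming protein, had a median of 8.30 (7.62 to 8.54) in high IMF and 7.99 (7.79 to 8.34) in low IMF muscle, a narrow spread in both, and 9 of the 10 high IMF bulls lay above the low IMF median. The FITM2 difference was 0.21 (SE 0.11). PLIN2, a coat protein of small droplets, had a median of 5.68 (4.85 to 6.52) in high IMF and 5.71 (4.73 to 6.37) in low IMF muscle, with a mean difference of 0.22 (SE 0.23). The PLIN2 means and medians therefore differ in sign.

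PLIN5 and PNPLA2, the droplet proteins that muscle fibres also express, were the 2 genes with a lower mean in high IMF muscle. PLIN5 in S animals was 7.81, 7.93, 8.23, 7.24 and 7.47 with high IMF and 7.31, 8.23, 8.76, 8.70 and 8.37 with low IMF. Without the S it was 7.35, 7.23, 7.17, 8.58 and 7.89 with high IMF and 7.62, 7.36, 7.22, 7.96 and 8.09 with low IMF. In the S series 3 of the 5 low IMF bulls exceeded every high IMF bull, and the lowest low IMF bull was replicate 6, the animal with the high CIDEC. The PLIN5 difference was -0.27 (SE 0.22) over all animals, -0.54 (SE 0.29) in S animals and -0.01 (SE 0.29) in the others.

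PNPLA2, the first lipase, had a median of 10.33 (9.41 to 10.94) in high IMF and 10.41 (9.37 to 11.25) in low IMF muscle. Its difference was -0.09 (SE 0.27) over all animals, -0.26 (SE 0.15) in S animals and 0.07 (SE 0.15) in the others. LIPE, read from its brightest probe set (Bt.6362.1.A1_at), had a median of 8.17 (7.36 to 10.44) in high IMF and 7.89 (7.20 to 9.88) in low IMF muscle. The LIPE difference was 0.49 (SE 0.35), and 0.28 without high IMF replicate 10. Both lipases overlapped between the IMF groups, with 5 of 10 high IMF bulls above the low IMF median for PNPLA2 and 8 of 10 for LIPE.

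**Figure D1:**
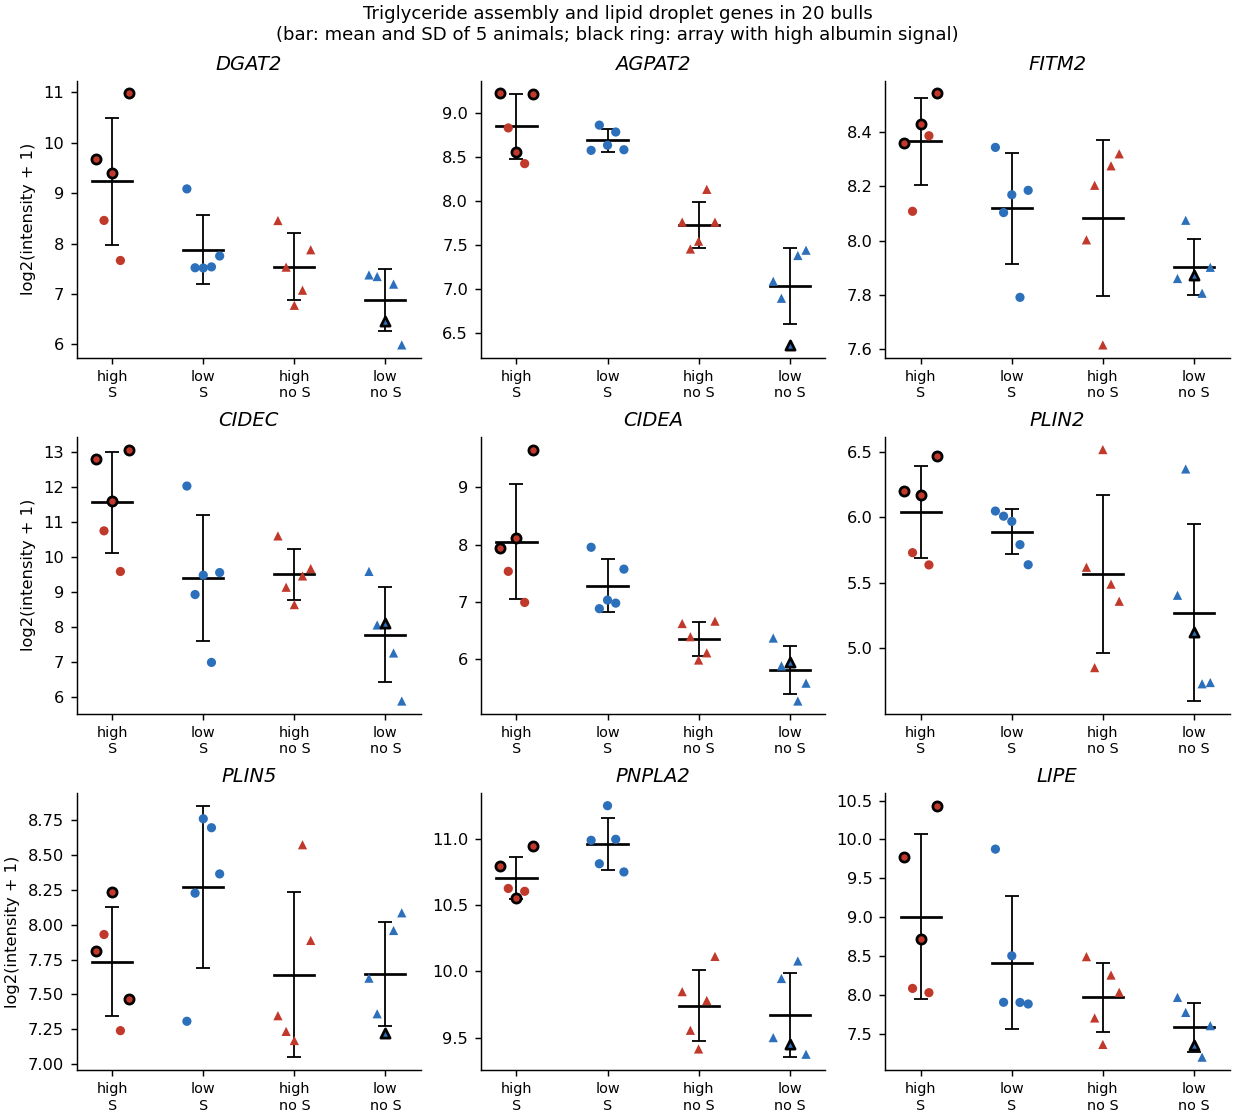
The log2(intensity + 1) of each of the 9 genes by IMF group and title series, with 1 point for each bull, the mean and SD of 5 bulls as bars, and a black ring on the 4 arrays with high albumin signal. For CIDEC the 5 high IMF S bulls sit between 9.58 and 13.06, and for AGPAT2 and PNPLA2 all S bulls lie above all bulls without the S.

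In the count over genes, 7 of the 9 had a higher and 2 a lower mean in high IMF muscle, with a median log2 difference of 0.43, against a median of -0.02 over all 7016 genes tested. No member probe set passed at an adjusted limma p of 0.05 (0 of 10), and 0.0% of all 14409 tested did. Of the 10, 2 (CIDEC and DGAT2) had an unadjusted p under 0.05, against 1.66% of all probe sets. That count was 4 without low IMF replicate 6, and 1 without any one of high IMF replicates 6, 8 and 10 or low IMF replicates 3 and 5. High and low IMF bulls overlapped for 10 of 10, and 0.0% of all probe sets parted the groups in either direction. In S animals alone 3 of 10 (CIDEC, DGAT2 and CIDEA) had an unadjusted p under 0.05, against 9.9% of all, and 0.0% of all passed the adjustment. Within that series 0 of 10 parted the groups, against 0.153% of all with every high IMF bull higher and 1.18% with every high IMF bull lower. In animals without the S, 2 of 10 (AGPAT2 and CIDEC) had an unadjusted p under 0.05, against 3.38% of all, and 0.0% of all passed the adjustment. There AGPAT2 alone of the 10 parted the groups, against 0.514% of all probe sets with every high IMF bull higher and 0.0763% with every high IMF bull lower.

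Title series as a covariate cannot change the size of the differences, because each IMF group holds 5 bulls of each series. It changes their SE. With it, 5 of 10 (CIDEC, AGPAT2, DGAT2, CIDEA and FITM2) had an unadjusted limma p under 0.05, against 7.34% of all probe sets. The lowest adjusted p among them was 0.676, and 0.0% of all passed. Without the 4 arrays with high albumin, with title series in the model, the high minus low difference was 1.40 (SE 0.62) for CIDEC, 0.41 (SE 0.30) for DGAT2, 0.34 (SE 0.20) for CIDEA, 0.30 (SE 0.14) for AGPAT2, 0.06 (SE 0.27) for LIPE and -0.34 (SE 0.25) for PLIN5. Of the 10, 2 (CIDEC and AGPAT2) had an unadjusted p under 0.05 there, against 4.6% of all probe sets. Within the S series, leaving out its 3 such arrays left 2 high IMF against 5 low IMF bulls, and CIDEC then differed by 0.77 (SE 1.001), DGAT2 by 0.18 (SE 0.49), CIDEA by -0.02 (SE 0.31) and LIPE by -0.36 (SE 0.43). PLIN5 differed there by -0.69 (SE 0.39). In the bulls without the S, leaving out low IMF replicate 3 left CIDEC at 1.80 (SE 0.80), CIDEA at 0.58 (SE 0.25) and AGPAT2 at 0.53 (SE 0.15). High IMF replicates 6, 8 and 10, with high albumin, had the highest CIDEC values of the high IMF bulls, at 12.81, 11.60 and 13.06. They also had the highest DGAT2 values of that group, at 9.67, 9.40 and 10.97. The array with the highest albumin signal, low IMF replicate 3, had a CIDEC value of 8.11. Low IMF replicate 6, with CIDEC at 12.02, had an intensity of 245 on the same albumin probe set, Bt.5130.1.A1_a_at. What the albumin signal has to do with these values was not tested.

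**Figure D2:**
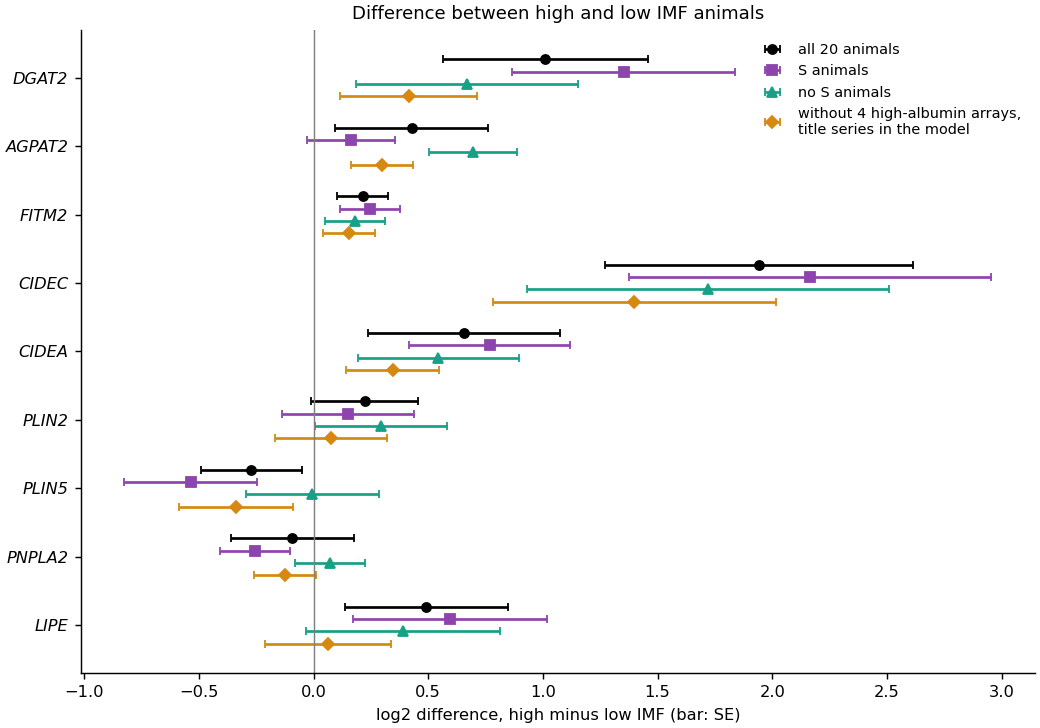
The log2 difference of each gene, high minus low IMF, with its SE as a bar, over all 20 animals, in each title series, and without the 4 high-albumin arrays with title series in the model. CIDEC lies right of 0 in all 4 fits (1.94, 2.16, 1.72 and 1.40), and PLIN5 lies left of 0 (-0.27, -0.54, -0.01 and -0.34).

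A formal test of whether the IMF difference itself differed between the title series passed for 0 of 10 member probe sets, with adjusted limma p-values from 0.866 to 0.962, and for 0.0% of all probe sets. At an unadjusted p under 0.05 the counts were 0 of 10 and 5.34%. For AGPAT2 the S difference minus the other was -0.53 (SE 0.27), and for PLIN5 it was -0.53 (SE 0.41). The 2 series were therefore not shown to differ in the IMF effect on any of these genes.

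Most of the 9 genes differed between the title series, as did most of the array. Of the 10 tested probe sets 9 passed (8 higher in S animals and 1 lower) with IMF in the limma model, against 68.3% of all tested probe sets, 33.4% higher and 34.8% lower. The median log2 difference, S minus no S, was 1.13 over the 9 genes, against 0.11 over all 7016 genes. PNPLA2 was 10.83 ± 0.22 in S animals and 9.71 ± 0.28 in the others (SD, n = 10 each), a rise of 1.13 (SE 0.11, adjusted p = 3.35e-08). AGPAT2 rose by 1.38 (SE 0.14, adjusted p = 6.90e-08). CIDEA was 7.67 ± 0.84 in S animals and 6.08 ± 0.45 in the others, a rise of 1.58 (SE 0.24, adjusted p = 8.61e-06).

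These 3 genes parted the series, with every S animal above every other, which is 3 of 10 tested probe sets, against 10.4% of all with every S animal higher and 9.27% with every S animal lower. CIDEC rose by 1.84 (SE 0.55, adjusted limma p = 0.00547), with S animals from 6.99 to 13.06 and the others from 5.89 to 10.60. DGAT2 rose by 1.35 (SE 0.34), LIPE by 0.94 (SE 0.29), PLIN2 by 0.54 (SE 0.20) and FITM2 by 0.25 (SE 0.09), all with overlapping series. PLIN5 did not pass, at 0.36 (SE 0.21, adjusted limma p = 0.131). PLIN5 passed when high IMF replicate 4 was left out (0.48, adjusted limma p = 0.0254) and when low IMF replicate 6 was left out (0.46, adjusted limma p = 0.0479).

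Without the 4 high-albumin arrays 5 of 10 probe sets still passed, against 61.4% of all. CIDEA (1.27), AGPAT2 (1.25), PNPLA2 (1.09) and DGAT2 (0.75) remained higher in S animals. The LIPE probe set Bt.13143.1.A1_at remained lower in S animals (-0.65, adjusted limma p = 9.19e-05). CIDEC (1.29, adjusted limma p = 0.0784), LIPE on its brightest probe set (0.51, adjusted limma p = 0.116), FITM2 (0.19, adjusted limma p = 0.155) and PLIN2 (0.40, adjusted limma p = 0.167) no longer passed.

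The series also differed in the spiked controls, which hold no muscle RNA. All 9 hybridisation control probe sets were lower in S animals, by log2 differences from -0.88 to -0.28, and 5 of them did not overlap between the series. Poly-A controls are added to the RNA before labelling. Of their 12 probe sets, 7 were higher and 5 lower in S animals, from -0.90 to 0.97. In 3 of the 7, every S animal lay above every other. Between high and low IMF the same controls differed only from -0.12 to 0.10. Animals and array handling cannot be told apart in the comparison of the series.

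**Figure D3:**
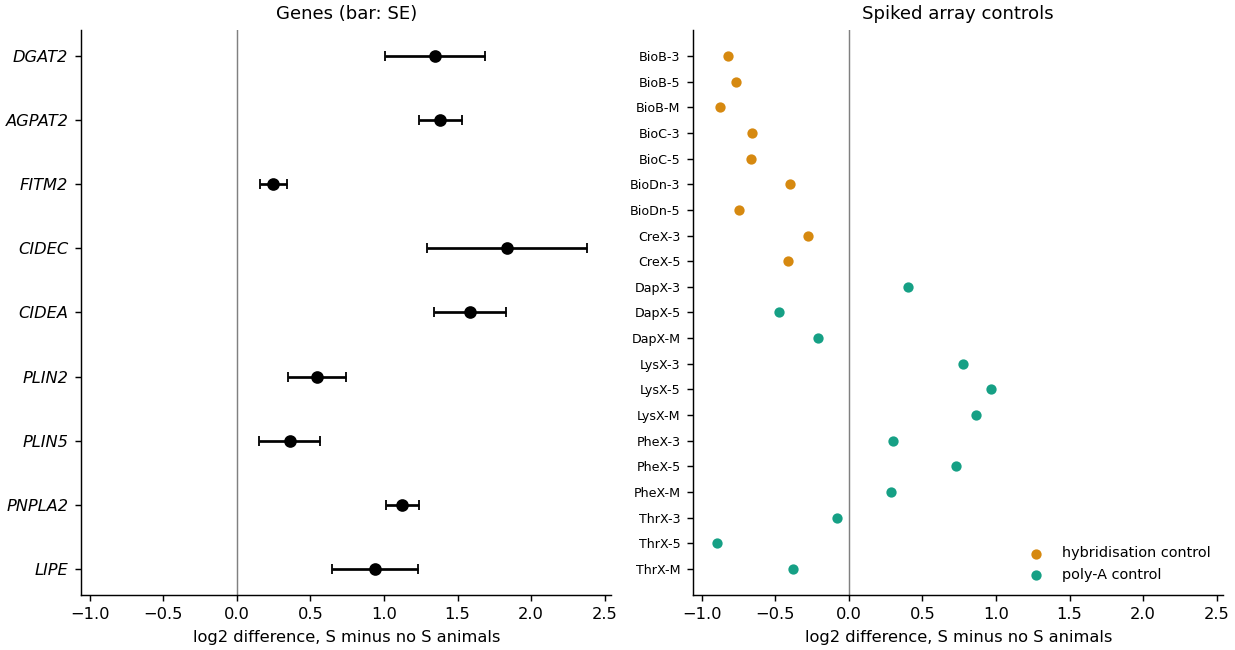
The log2 difference, S minus no S animals, of the 9 genes (left, bar: SE) and of the spiked array controls (right). The genes run from 0.25 for FITM2 to 1.84 for CIDEC, while the 9 hybridisation controls all lie left of 0.

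Of the 4 LIPE probe sets, 3 were higher in S animals and Bt.13143.1.A1_at stood apart. In the S comparison Bt.6362.1.A1_at was higher by 0.94, whereas Bt.13143.1.A1_at differed by -0.66 (SE 0.11, adjusted limma p = 2.88e-05). With no filter on dim probe sets, Bt.13143.1.S1_at differed by 1.47 (adjusted limma p = 0.00700) and Bt.28410.1.S1_at by 0.78 (adjusted limma p = 0.0161). In the platform annotation Bt.13143.1.A1_at shares its sequence record with Bt.13143.1.S1_at, and which transcript or strand it reads was not tested. Over the 20 animals the correlation with CIDEC was 0.86 for Bt.6362.1.A1_at, 0.79 for Bt.13143.1.S1_at, 0.62 for Bt.28410.1.S1_at and -0.37 for Bt.13143.1.A1_at, given as a description. The middle 2 were among the dim probe sets left out of the tests, with medians over all animals of 3.05 and 4.27. Bt.13143.1.A1_at had a high minus low IMF difference of 0.16 (SE 0.18), beside 0.49 for the brightest probe set.

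Across animals, CIDEC ran closely with DGAT2 and LIPE and not detectably with PLIN5. Over the 20 animals 5 relations with CIDEC were tested by permutation. AGPAT2, CIDEA and PNPLA2 were left out of the pooled test because their title series form separate clusters. The genes kept, other than PLIN5, also differed between the series, as did CIDEC. The pooled r and p-values therefore do not separate a relation within a series from a shared difference between the series. Relations with the set means removed are given below. With DGAT2, r was 0.90 and Spearman's rho 0.86 (permutation p = 1e-05 and 3e-05, adjusted 2.5e-05 and 7.5e-05, n = 20), where 1e-05 is the smallest p that 100000 resamples can give. With LIPE both were 0.86 (permutation p = 1e-05 for each, adjusted 2.5e-05 and 5e-05). FITM2 had an r of 0.74 and a rho of 0.74 (permutation p = 0.00021 and 0.00032, adjusted 0.00035 and 0.000533).

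PLIN2 followed CIDEC weakly, with an r of 0.56 and a rho of 0.39 (permutation p = 0.011 and 0.092, adjusted 0.0138 and 0.115). PLIN5 had an r of -0.19 and a rho of -0.12 (permutation p = 0.413 and 0.615, adjusted to the same values). Without the 2 animals farthest from the median CIDEC value, r was 0.87 for DGAT2, 0.86 for LIPE, 0.68 for FITM2, 0.35 for PLIN2 and -0.10 for PLIN5, so the PLIN2 relation did not hold without them. Without the 4 high-albumin arrays r was 0.85 for DGAT2, 0.74 for LIPE, 0.58 for FITM2, 0.34 for PLIN2 and -0.30 for PLIN5, and the PLIN2 relation did not hold there either.

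Within the title series all 8 other genes could be set against CIDEC, which made 16 relations of 10 animals each. In S animals r was 0.89 for DGAT2, 0.86 for LIPE, 0.85 for FITM2 and 0.81 for CIDEA, and rho was 0.93 for DGAT2, 0.85 for LIPE, 0.81 for FITM2 and 0.88 for CIDEA. The adjusted permutation p for r was 0.00496 for DGAT2 and LIPE, 0.00812 for FITM2 and 0.0107 for CIDEA. In the others r was 0.87 for CIDEA (rho 0.94), 0.82 for DGAT2 (rho 0.76), 0.72 for LIPE (rho 0.79) and 0.39 for FITM2 (rho 0.41). There the adjusted permutation p for r was 0.00544 for CIDEA, 0.0107 for DGAT2, 0.0393 for LIPE and 0.381 for FITM2. In the others the DGAT2 relation did not hold without the 2 animals farthest from the median CIDEC value (r = 0.46, adjusted permutation p = 0.405). That removal left 8 animals and a narrower range of CIDEC. In S animals the same removal gave an r of 0.98 for DGAT2 and 0.61 for FITM2, and FITM2 no longer passed (adjusted permutation p = 0.174). In the others LIPE then had an r of 0.82 and did not pass either (adjusted permutation p = 0.0644). CIDEA still passed for r in both series (adjusted permutation p = 0.0249 in S animals and 0.00872 in the others). AGPAT2 had an r of 0.45 in S animals and 0.35 in the others, and PNPLA2 had -0.16 and 0.25. PLIN5 had -0.62 in S animals (rho -0.65, adjusted permutation p = 0.0987 for r) and -0.18 in the others, and neither passed.

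After the mean of each of the 4 sets of 5 bulls was removed, r with CIDEC was 0.81 for DGAT2, 0.80 for LIPE and 0.74 for CIDEA. The adjusted permutation p-values were 0.0004 for DGAT2 and LIPE and 0.000773 for CIDEA, over 8 relations. In the same setting r was 0.48 for FITM2 (adjusted permutation p = 0.052), 0.34 for PLIN2, 0.25 for PNPLA2, 0.06 for AGPAT2 and -0.36 for PLIN5. The relation of CIDEC with DGAT2, LIPE and CIDEA was thus also present among bulls of the same IMF group and title series.

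**Figure D4:**
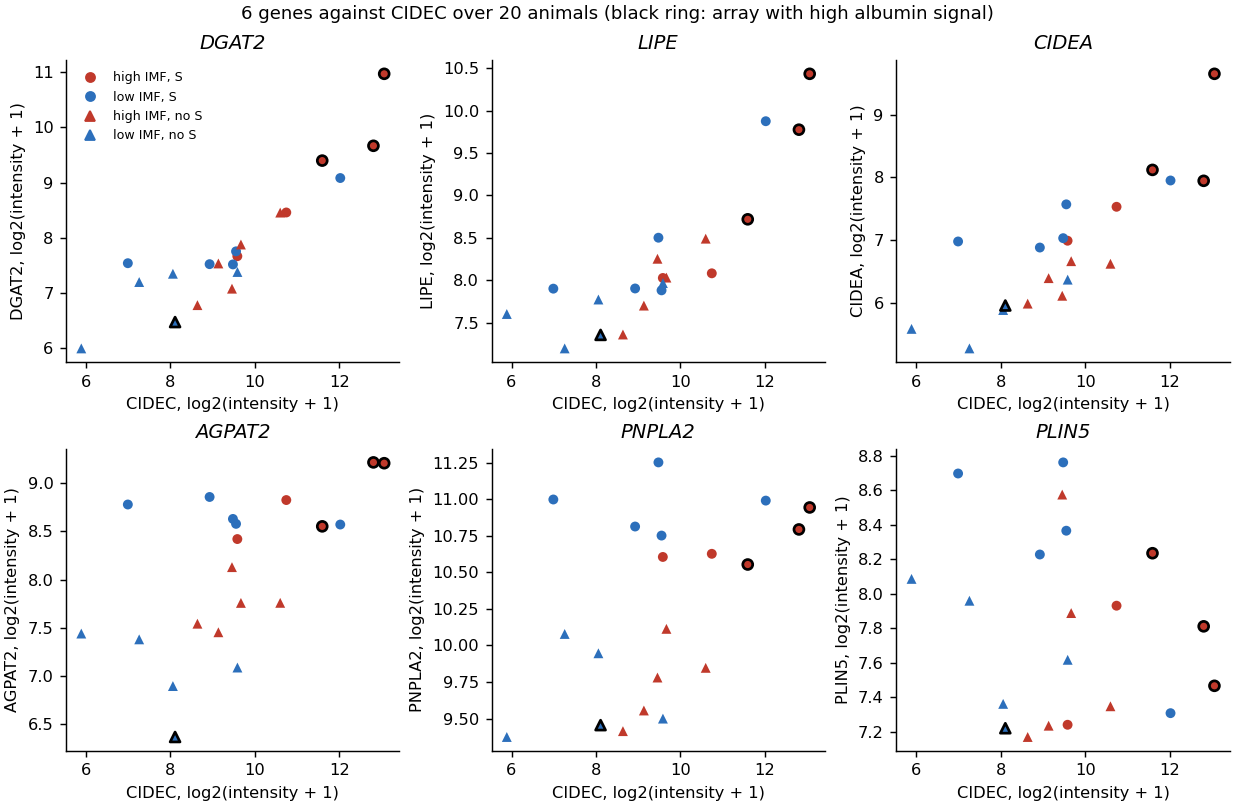
The log2(intensity + 1) of DGAT2, LIPE, CIDEA, AGPAT2, PNPLA2 and PLIN5 against that of CIDEC, with 1 point for each of the 20 bulls and a black ring on the 4 arrays with high albumin signal. DGAT2 (r = 0.90) and LIPE (r = 0.86) rise with CIDEC, AGPAT2 and PNPLA2 form separate clusters by title series, and PLIN5 (r = -0.19) shows no rise.

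The contrast of the fat cell pair with the fibre pair can be read for each animal. The mean of CIDEC and CIDEA, each as its log2 value minus its own mean over the 20 animals, ran from -0.90 to 3.14 with a median of 0.23 in high IMF bulls, and from -2.48 to 1.77 with a median of -0.75 in low IMF bulls. The mean of PLIN5 and PNPLA2 on the same scale ran from -0.76 to 0.35 with a median of 0.04 in high IMF bulls, and from -0.71 to 0.96 with a median of 0.04 in low IMF bulls. The values of the fat cell pair thus spread more widely over the animals than those of the fibre pair, and CIDEC spread most. The SD over all 20 animals was 1.87 for CIDEC, 1.04 for CIDEA, 0.63 for PNPLA2 and 0.53 for PLIN5. In S animals the fibre pair had a median of 0.23 with high IMF and 0.51 with low IMF, and in the others -0.45 with high IMF and -0.39 with low IMF. The fat cell pair minus the fibre pair had a median of 0.44 (-0.56 to 2.99) in high IMF bulls and -0.82 (-2.17 to 1.67) in low IMF bulls, given as a description with no test. In S animals that quantity had a median of 1.30 (0.20 to 2.99) with high IMF and -0.79 (-2.03 to 1.67) with low IMF. In that series high IMF replicates 6, 8 and 10, with high albumin, stood at 1.91, 1.30 and 2.99. High IMF replicates 7 and 9 stood at 0.69 and 0.20. In the others the pair difference had a median of 0.00 (-0.56 to 0.84) with high IMF and -0.85 (-2.17 to 0.25) with low IMF. Low IMF replicate 3, with high albumin, stood at -0.48. In RNA from whole muscle, more fat cells and more RNA of a gene in each fat cell cannot be told apart.

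**Figure D5:**
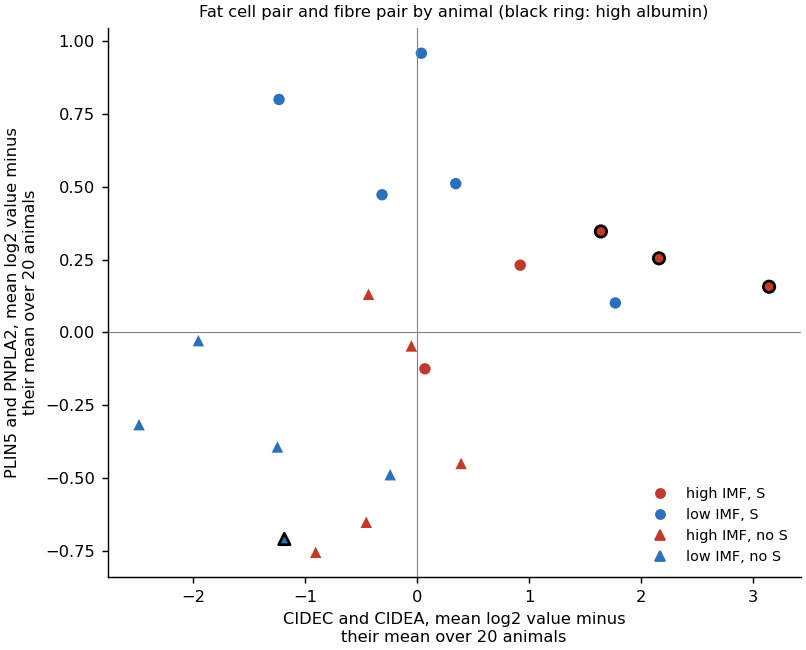
For each bull, the mean log2 value of CIDEC and CIDEA (horizontal) and of PLIN5 and PNPLA2 (vertical), each gene minus its mean over the 20 animals. The horizontal spread runs from -2.48 to 3.14 and the vertical from -0.76 to 0.96, and on the vertical axis the S bulls run from -0.12 to 0.96 and the others from -0.76 to 0.13.

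The genes whose values most resembled those of CIDEC over the 20 animals, among 7007 genes outside the 9, were FABP4, a fatty acid carrier of fat cells (r = 0.98), CCDC3 (0.95), S100G, a calcium-binding protein (0.95), ACSM1, an acyl-CoA synthetase of mitochondria (0.93), and THRSP, a nuclear protein tied to fatty acid synthesis (0.93). FABP4 held an r of 0.99 in S animals and 0.97 in the others. Those most like PLIN5 were IDH2, the mitochondrial NADP-dependent isocitrate dehydrogenase (r = 0.85), SCMH1 (0.79), ZNF768 (0.78), PPIF, a peptidyl-prolyl isomerase of the mitochondrial matrix (0.76), and ADCY2, an adenylyl cyclase (0.75). IDH2 had an r with PLIN5 of 0.96 in S animals and 0.71 in the others. These values are descriptions over the arrays of both title series, and no gene occurred in both groups of 5.

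Other lists of pathway genes had small median differences between the IMF groups, and G0S2 had the largest difference of a single gene. Single differences ran from -0.23 to 0.34 among the assembly genes and from -0.34 to 0.18 among the other droplet proteins. Of 15 tested genes of triglyceride and phospholipid assembly, 0 passed the limma test between the IMF groups and their median log2 difference was -0.03. The 3 brightest were GPD1, which makes glycerol phosphate (-0.06, SE 0.09), AGPAT5 (-0.11, SE 0.24) and PLPP1, a lipid phosphate phosphatase (0.06, SE 0.09). The other lipid droplet proteins, 9 tested, had a median of 0.02 with 0 passing, and CAV1, a caveola protein, stood at 0.18 (SE 0.18), CAVIN1 at 0.03 (SE 0.17) and AUP1 at 0.02 (SE 0.22).

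Of 10 tested lipolysis genes, 0 passed between the IMF groups, and their median was -0.01. G0S2, the inhibitor of PNPLA2, differed by 0.96 (SE 0.56) between high and low IMF, by 1.19 (SE 0.47) in S animals and by 0.72 (SE 0.47) in the others. Among the rest, AQP7, the glycerol channel, differed by 0.15 (SE 0.18), LPL, the vessel-wall lipase, by -0.03 (SE 0.29) and PRKACA, a catalytic subunit of protein kinase A, by 0.00 (SE 0.12). All of these medians stand against -0.02 over all genes tested.

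Markers of other cell types are given beside these differences. Of 15 fat cell markers listed, 13 had a probe set with 1 symbol on the array and 8 were bright enough to be tested. The 8 tested fat cell markers had a median high minus low IMF difference of 0.62, with 0 passing in limma (lowest adjusted p = 0.9997). Their differences were uneven, at 2.45 (SE 0.71) for THRSP, 1.65 (SE 0.65) for FABP4, 1.24 (SE 0.62) for PCK1, which makes phosphoenolpyruvate, and 1.103 (SE 0.53) for TRARG1, a protein of glucose transporter traffic. AQP7 stood at 0.15, LPL at -0.03, GPD1 at -0.06 and CFD, a secreted protease of fat cells, at -0.22. AQP7, LPL and GPD1 also belong to the lipolysis and assembly lists given above. All 8 fibroblast and matrix markers had a higher mean in high IMF muscle, with 0 passing and a median of 0.21 (0.49 in S animals and -0.02 in the others). Their mean log2 level ran from 9.37 to 10.61 in high IMF and from 8.84 to 10.86 in low IMF muscle. All 5 endothelial markers had a lower mean in high IMF muscle, with 0 passing and a median of -0.18 (-0.27 in S animals and 0.03 in the others). Their mean level ran from 7.44 to 8.24 in high IMF and from 7.73 to 8.43 in low IMF muscle. Of 5 macrophage markers 4 had a lower mean in high IMF muscle, with 0 passing and a median of -0.20, at a level of 5.90 to 7.54 in high IMF and 5.65 to 7.54 in low IMF muscle. Over all 7016 genes tested, 3044 had a higher and 3972 a lower mean in high IMF muscle. Of 10 muscle fibre markers, 1 had a higher and 9 a lower mean, with 0 passing and a median of -0.01. The part of these cell types in the IMF differences was not tested.

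Between the title series the same lists moved in both directions. Over all 7016 genes tested 2859 were higher and 2071 lower in S animals in limma, and without the 4 high-albumin arrays 2579 and 1852. G0S2 rose in S animals by 2.08 (SE 0.33, adjusted limma p = 1.25e-05), and by 1.77 (SE 0.37, adjusted limma p = 0.000568) without the 4 high-albumin arrays. Of the assembly genes 5 were higher and 3 lower in S animals (5 and 1 without those arrays), with DGAT1, which adds the last fatty acid as DGAT2 does, up by 0.99 (SE 0.12, adjusted limma p = 2.79e-07) and AGPAT5 at -0.99 (SE 0.11, adjusted limma p = 8.15e-08). Of the droplet proteins 4 were higher and 4 lower, with AUP1 at 0.98 (SE 0.07) and RAB18, a small GTPase of droplets, at -1.13 (SE 0.12). Of the lipolysis genes 4 were higher and 3 lower, with ABHD5, the activator of PNPLA2, at -0.31 (SE 0.11).

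Of the 8 tested fat cell markers 7 were higher in S animals and LPL was lower, and without the 4 high-albumin arrays 5 passed as higher and 1 as lower. FABP4 was higher by 1.45 in S animals and differed by 0.86 (adjusted limma p = 0.264) without those arrays, and THRSP was higher by 1.94 and differed by 1.18 (adjusted limma p = 0.108). The mean level of the fat cell markers ran from 7.78 to 10.73 in S animals and from 7.40 to 9.08 in the others. All 5 macrophage markers had a higher mean in S animals and 4 passed, with and without those arrays, with a median difference of 0.91. Their mean level ran from 6.99 to 7.54 in S animals and from 5.65 to 7.28 in the others. Of 8 fibroblast and matrix markers 3 passed as higher and 1 as lower, and COL1A1, a collagen chain, rose by 1.53 (SE 0.28, adjusted limma p = 5.91e-05). Without those arrays 1 matrix marker passed as higher. Of 5 endothelial markers 2 passed as higher, and without those arrays 0. The part of these cell types in the differences between the series was not tested.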

How the data were processed

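RNA from the back muscle of 20 bulls was measured on an Affymetrix cattle array, with 1 array per animal. Per the submitters' processing notes, GCOS 1.1.1 and Affymetrix Expression Console 1.1 were used. How probes were summarised is stated in no source used here. The authors deposited linear intensities for 24128 probe sets, and their normalization was kept. Here 112 array controls were removed, log2(value + 1) was taken, the 40% dimmest probe sets by mean were left out, and 14409 were tested with limma 3.58.1 in R 4.3.3 (lmFit and eBayes, two-sided, Benjamini-Hochberg over all 14409, threshold 0.05). Fold changes on this scale understate those of dim probe sets. The IMF comparison had no covariate. The comparison of S with no S animals had IMF as a covariate, and the comparisons within a series came from a fit of 4 sets of 5 animals. The code was tested on simulated data. Replicates are bulls with their own title numbers.

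The platform annotation gave 1 symbol for 13318 probe sets, several for 86 and none for 10724. The Entrez identifiers of all 9 genes matched their symbols in the RefSeq gene table for cattle. A gene with several probe sets is represented by the brightest. Named genes are the 9, albumin (by any probe set above an intensity of 2000), the 3 brightest tested genes of each pathway list, genes of these lists past the test (a selection is printed), and the 5 genes most correlated with CIDEC and with PLIN5. The members, lists and tests were chosen with earlier results of these data known. The correlation test was planned over 8 genes. Of these, 3 were tested only within the series and with the means of IMF group and title series removed. The within-series comparisons without the high-albumin arrays, and permutation p-values within the series, were added after seeing the data. No genome build is stated for the intensities, so no positions are given.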

Additional observations from a re-analysis of the deposited data

Results flagged for a closer look

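Each of the 12 probe sets was examined in both IMF groups for an animal whose gap to its nearest neighbour was large against the range of its group, which made 24 groups, and chance alone singles out about 1 in 20. LIPE gave all 3 cases. On its brightest probe set, low IMF replicate 6 had 9.88 and the next animal of that group 8.50, a gap of 0.513 of the range. On Bt.13143.1.A1_at, high IMF replicate 8 had 5.10 and its nearest neighbour 5.73, a gap of 0.479 of the range. On Bt.28410.1.S1_at, a dim probe set that was not tested, high IMF replicate 3 had 2.27 and its nearest neighbour 3.71, a gap of 0.494 of the range. The cause was not tested.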

How the results depend on the processing

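No paired analysis was possible because the labels pair no animals, although the series text names a paired test. The number of probe sets past the threshold between the IMF groups was 0 under each alternative tried (239 had an unadjusted p under 0.05 in limma and 258 in a t-test). Of the member values, 178 of 180 kept their direction and their side of the threshold between S and no S when 1 animal was left out, and PLIN5 became significant in the other 2. Between the IMF groups PNPLA2 ran from -0.20 to 0.011 when 1 animal was left out. Within S animals, leaving out the high-albumin arrays (an alternative chosen after seeing the data) gave -0.060 for AGPAT2, -0.022 for CIDEA, -0.21 for PLIN2 and -0.36 for LIPE, in place of positive values. The difference of the IMF effect between the series was then -0.39 for DGAT2, -1.03 for CIDEC, -0.60 for CIDEA, -0.044 for FITM2 and -0.69 for LIPE. With 1 animal left out it ran from -0.16 to 1.101 for CIDEC, -0.18 to 0.49 for CIDEA, -0.050 to 0.13 for FITM2, -0.42 to 0.092 for PLIN2 and -0.15 to 0.57 for LIPE. The pooled correlation of FITM2 with CIDEC no longer passed with group means removed (0.48). That of PLIN2 no longer passed with group means removed (0.34). Nor did the PLIN2 correlation pass without the 2 animals farthest from the CIDEC median (0.35) or without the high-albumin arrays (0.34). The causes were not tested. The small number of bulls in each set limits every comparison within a series.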
